A study of Mus musculus with 11 samples.

Results

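T cells and natural killer (NK) cells are the lymphocytes that recognise and kill abnormal cells, and 35 of their genes were followed through 11 mouse skin tumours sequenced as bulk RNA. The members were picked by gene symbol, with earlier results of these data known, and all 35 were found among the 18756 mouse genes of the count table. The tumours were harvested at end point from genetically engineered C57BL/6 mice of a melanoma model. There were 5 tumours labelled GNA11 Q209L Bap1 KO, 2 labelled GNA11 Q209L and 4 labelled BRAF V600E Bap1 KO. GNA11 Q209L locks a G protein alpha subunit in its active state, as in many uveal melanomas. BRAF V600E does so for a kinase of the MAPK pathway, as in many skin melanomas. Bap1 encodes a tumour suppressor that removes ubiquitin from nuclear proteins. In the table's own lines on genotype, the 5 GNA11 Q209L Bap1 KO libraries are entered as BAP1 F/F and the 2 GNA11 Q209L libraries as WT. All 4 BRAF V600E Bap1 KO libraries are BAP1 F/F in the top line, but replicates 2 and 4 are NA in the last line. GNA11 Q209L Bap1 KO replicates 1 and 2 share an identifier in their titles, and nothing in the labels says whether they come from 1 mouse. The labels give no age, sex, batch or tumour purity, and no source used here gives the promoter that drives the transgenes. Replicate numbers are only names, and p-values measure the spread between these tumours.

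A T cell recognises antigen through the T cell receptor, which signals through the CD3 chains (Cd3d, Cd3e, Cd3g) and the zeta chain Cd247 to the kinases Lck and Zap70 and the adaptor Lat. Helper T cells carry CD4, cytotoxic T cells carry CD8 and kill with perforin and granzymes, and regulatory T cells carry Foxp3 and the high-affinity interleukin-2 receptor. NK cells lack CD3 and kill under the control of receptors of the Klr family and of NKp46, the product of Ncr1. In tumours, infiltrating CD8 T cells and NK cells are the main killers, and regulatory T cells restrain them.

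The promoters of the 3 CD3 chains and of Cd8a are shown because these genes define T cells and their cytotoxic branch and were all called lower in GNA11 Q209L Bap1 KO than in BRAF V600E Bap1 KO. They are from RefSeq on GRCm38.p6, hold 250 bases before and 50 bases after the gene start, and are written 5′ to 3′ on the gene's strand. Capitals mark the letters AGGAAG, an ETS-type core, and CAGNTG, an E-box bound by E proteins, on either strand. TGTGGT, a RUNX-type core, was searched in the same way.
Cd3d promoter, chr9:44981536-44981835, plus strand: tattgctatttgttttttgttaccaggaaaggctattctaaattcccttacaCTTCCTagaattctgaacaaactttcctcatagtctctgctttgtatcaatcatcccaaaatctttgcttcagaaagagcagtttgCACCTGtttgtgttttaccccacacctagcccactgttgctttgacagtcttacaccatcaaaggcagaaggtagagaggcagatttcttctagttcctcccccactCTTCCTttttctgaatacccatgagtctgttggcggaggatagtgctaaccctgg
Cd3e promoter, chr9:45009562-45009861, minus strand: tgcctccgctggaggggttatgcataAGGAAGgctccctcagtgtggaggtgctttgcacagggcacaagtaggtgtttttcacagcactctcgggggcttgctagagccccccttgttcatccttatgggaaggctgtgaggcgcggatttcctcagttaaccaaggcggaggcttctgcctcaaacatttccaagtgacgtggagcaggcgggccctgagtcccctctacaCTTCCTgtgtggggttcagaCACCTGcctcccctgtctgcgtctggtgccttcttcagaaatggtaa
Cd3g promoter, chr9:44980382-44980681, minus strand: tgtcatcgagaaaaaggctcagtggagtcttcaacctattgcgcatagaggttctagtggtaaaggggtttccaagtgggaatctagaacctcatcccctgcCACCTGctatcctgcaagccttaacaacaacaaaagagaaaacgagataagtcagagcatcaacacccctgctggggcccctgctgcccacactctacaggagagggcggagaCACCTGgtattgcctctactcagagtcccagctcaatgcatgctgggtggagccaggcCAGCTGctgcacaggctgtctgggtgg
Cd8a promoter, chr6:71373177-71373476, plus strand: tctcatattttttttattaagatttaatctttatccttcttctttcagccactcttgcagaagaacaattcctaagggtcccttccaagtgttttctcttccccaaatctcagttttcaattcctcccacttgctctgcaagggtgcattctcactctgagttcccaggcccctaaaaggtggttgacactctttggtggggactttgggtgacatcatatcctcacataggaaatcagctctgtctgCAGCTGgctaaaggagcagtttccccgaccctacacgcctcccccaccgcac
The E-box letters occurred 1 time in the Cd3d window, 1 time in Cd3e, 3 times in Cd3g and 1 time in Cd8a. The same letters were in 51.4% of 32851 RefSeq promoters of this length. The ETS letters occurred 2 times in Cd3d and 2 times in Cd3e, and were in 35.4% of the promoters. The RUNX letters were in none of the 4 windows and in 16.8% of the promoters. The matches do not overlap, and each is a description of letters only. The 3 CD3 genes lie on chromosome 9 and Cd8a on chromosome 6. A promoter was found for 24 of the 35 members in the RefSeq table.

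T and NK cell transcripts were scarce in most of the tumours, and a few libraries stood out. Levels are CPM, gene counts relative to library size, scaled by edgeR's trimmed mean of M-values (TMM). Summed over the 35 members they came to 33.9, 47.1, 39.9, 31.97 and 41.3 CPM in GNA11 Q209L Bap1 KO replicates 1 to 5, 143 and 26.6 CPM in GNA11 Q209L replicates 1 and 2, and 50.3, 232, 113 and 154 CPM in BRAF V600E Bap1 KO replicates 1 to 4. The highest sums were those of BRAF V600E Bap1 KO replicate 2, replicate 4 and GNA11 Q209L replicate 1. Gata3 and Bcl11b gave 74.8 and 22.7 CPM of the sum in BRAF V600E Bap1 KO replicate 4. In its replicate 3 they gave 17.2 and 39.3 CPM. Epidermal cells also express both genes. The 5 GNA11 Q209L Bap1 KO sums lay close together, with Il2rb at 7.66 to 20.6 CPM and Cd4 at 2.33 to 13.3 CPM. Their T cell receptor complex genes summed to 0.378 to 3.61 CPM, and their NK receptor genes to 0.0173 to 1.74 CPM. For 26 of the 35 members the highest library was BRAF V600E Bap1 KO replicate 2, which was the highest for 12.8% of the 17350 genes tested. GNA11 Q209L replicate 1 was highest for 5 members (Cd28, Cd4, Ncr1, Tbx21 and Eomes), against 8.28% of genes. Gata3 and Cd247 were highest in BRAF V600E Bap1 KO replicate 4, Bcl11b in its replicate 3, and Il2rb in GNA11 Q209L Bap1 KO replicate 5. In bulk RNA, fewer cells of a type and less RNA per cell cannot be told apart.

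**Figure D1:**
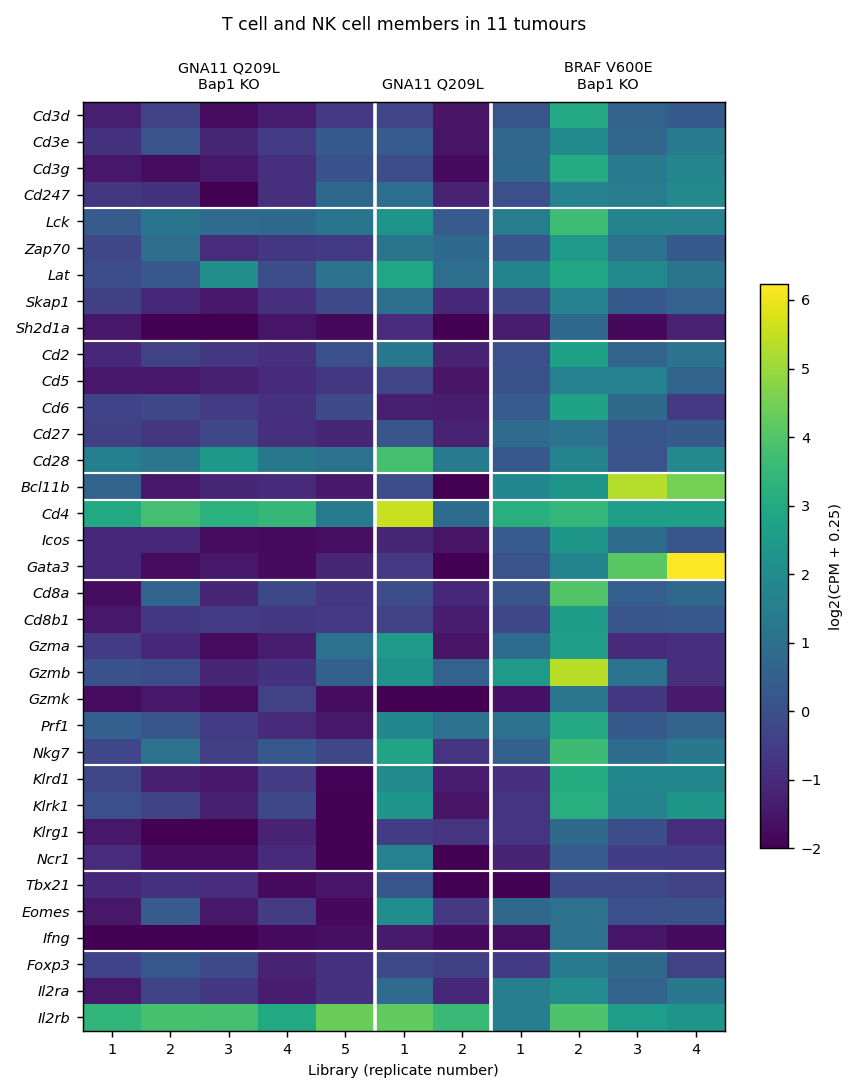
Level of the 35 members in each of the 11 tumour libraries, as log2(CPM + 0.25), with members in rows grouped by role and libraries in columns grouped by genotype. The column of BRAF V600E Bap1 KO replicate 2 is the highest for 26 members, and GNA11 Q209L replicate 1 for 5.

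Library totals ran from 18338082 to 81035135 counts, so 3 counts, the limit taken for a gene with no count, came to between 0.0370 and 0.164 CPM before TMM scaling. Bap1 itself had 102, 130, 103, 102 and 170 CPM in GNA11 Q209L Bap1 KO replicates 1 to 5, 85.05 and 137 CPM in GNA11 Q209L replicates 1 and 2, and 59.8, 57.5, 71.3 and 54.7 CPM in BRAF V600E Bap1 KO replicates 1 to 4, so its gene-level counts, which may include exons outside the deleted part, do not show the labelled knockout (edgeR adjusted p = 0.9199 for GNA11 Q209L Bap1 KO over GNA11 Q209L). All 4 BRAF V600E Bap1 KO libraries were below the 7 others, with adjusted p = 0.00811 for GNA11 Q209L Bap1 KO over BRAF V600E Bap1 KO. The labelled tissue was checked against marker lists, summed in CPM. The 6 melanocyte markers came to 73050, 92780, 76780, 96460 and 88880 CPM in GNA11 Q209L Bap1 KO replicates 1 to 5, 65010 and 62660 CPM in GNA11 Q209L replicates 1 and 2, and 47.7, 87.3, 118 and 180 CPM in BRAF V600E Bap1 KO replicates 1 to 4, and all 6 had counts in every library. The 6 epidermal keratinocyte markers came to 1625, 5.47, 3.95, 3.33 and 0.881 CPM in GNA11 Q209L Bap1 KO replicates 1 to 5, 6.17 and 1.11 CPM in GNA11 Q209L replicates 1 and 2, and 151, 301, 13160 and 4474 CPM in BRAF V600E Bap1 KO replicates 1 to 4. The 5 pan leukocyte markers ran from 73.8 to 515 CPM across GNA11 Q209L Bap1 KO, stood at 2494 and 385 CPM for GNA11 Q209L, and ran from 208 to 1008 CPM across BRAF V600E Bap1 KO. So the BRAF V600E Bap1 KO tumours held few melanocyte transcripts, and their replicates 3 and 4 held the most keratinocyte transcripts. Krt1 had no count in GNA11 Q209L Bap1 KO replicate 5 or in either GNA11 Q209L library, and Krt5 none in GNA11 Q209L Bap1 KO replicate 5 and GNA11 Q209L replicate 2.

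No member passed the test of GNA11 Q209L Bap1 KO against GNA11 Q209L, the comparison that asks what goes with the Bap1 knockout under 1 oncogene. A gene was called at an adjusted p under 0.05 in edgeR's quasi-likelihood test, with Benjamini-Hochberg adjustment over all 17350 genes tested. Of the 35 members 33 were tested, and Sh2d1a and Ifng fell below the filter on low counts. A gene high in 1 genotype alone can pass that filter, so the 33 are not a fair sample of the 35. With edgeR 0 of the 33 were called, where 0.0288% of all genes were in either direction, 0.0231% lower and 0.00576% higher. DESeq2 and limma voom also called 0 members. Of all genes DESeq2 called 1.24% lower and 1.31% higher, and limma voom 0.0231% and 0.00576%. At an unadjusted p under 0.05 there were 4 members (Prf1, Klrg1, Ncr1 and Eomes), where 11.4% of all genes were. The median log2 fold change of the 33 was -1.25, where that of all genes was -0.004. The groups did not overlap for 3 members that stood below GNA11 Q209L (Gzmb, Prf1 and Klrg1), where 9.01% of all genes did so, and for 2 that stood above it (Cd6 and Gzmk), where 7.57% did. In GNA11 Q209L the 2 libraries differed widely, with a summed member level of 143 CPM in replicate 1 and 26.6 CPM in replicate 2.

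Of the genotypes labelled Bap1 KO, which differ in oncogene, the one with GNA11 Q209L had the lower levels of these genes, a difference that leaned on BRAF V600E Bap1 KO replicate 2: 19 of the 33 members tested were called lower than in BRAF V600E Bap1 KO and 0 higher. Over all genes 24.7% were called lower, 16.5% higher and 41.2% in either direction. An unadjusted p under 0.05 was reached by 23 members and by 51.3% of all genes. The median log2 fold change of the members was -2.24, and that of all genes was -0.26. With total counts in place of TMM the median of all genes moved by -0.37, and the share of calls that were lower was 76.6% in place of 59.9%. The count of members called was then 23, all lower, or 69.7%, where 32.9% of all genes were called lower. The groups did not overlap for 13 members that stood below BRAF V600E Bap1 KO, where 17.2% of all genes did so, and for 0 above it, where 14.7% did. Without BRAF V600E Bap1 KO replicate 2 the lower calls were 6 (Bcl11b, Cd3g, Cd5, Gata3, Icos and Il2ra), each of them among the 19, of 32 tested. That is 18.8% of the members, where 21.5% of all genes were called lower in the same fit, so without that tumour the members' share was near that of all genes. With replicates 2 and 4 both left out, an alternative chosen after seeing the data, there were also 6 of 32 (Bcl11b, Cd5, Gata3, Gzmb, Icos and Il2ra), or 18.8%, where 13.5% of all genes were. In both settings 1 member, Il2rb, was called higher. Leaving out any 1 of the 5 GNA11 Q209L Bap1 KO libraries gave 11 or 12 lower calls, or 33.3% to 36.4%, where 17.9% to 21.1% of all genes were called lower. With replicates 1 and 2 of that genotype, which share an identifier, summed as 1 library there were 14, without Cd2, Cd3e, Cd6, Lck and Skap1. That is 42.4%, where 19.9% of all genes were called lower. DESeq2 called 20 lower (60.6%), where 27.2% of all genes were. Limma voom called 10 lower (30.3%), where 18% of all genes were, and Il2rb higher (3.03%), where 17.2% were. It did not call Cd2, Cd3e, Cd6, Cd8a, Cd8b1, Gata3, Gzmb, Klrd1, Lck or Skap1, and it called Eomes, which is not among the 19.

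Between GNA11 Q209L and BRAF V600E Bap1 KO, which differ in oncogene and Bap1 together, 3 of 33 members were called lower (Cd6, Icos and Gata3) and 0 higher, where 5.93% of all genes were called lower, 9.27% higher and 15.2% in either direction. An unadjusted p under 0.05 was reached by 10 members and by 36.5% of all genes. The groups did not overlap for 12 members below BRAF V600E Bap1 KO, where 22.9% of all genes did so, and for 0 above it, where 19% did. The median was -1.07 for the members and -0.23 for all genes. With total counts the median of all genes moved by -0.42, and the share of calls that were lower was 64.9% in place of 39.0%. DESeq2 called 8 members, 7 lower (21.2%) and Cd28 higher (3.03%), where 17.9% of all genes were called lower and 13.4% higher. Limma voom and edgeR on the 2 genotypes alone called 0 members. Of all genes limma voom called 5.2% lower and 9.78% higher, and the 2 genotypes alone 0.417% and 2.03%. The 2 comparisons against BRAF V600E Bap1 KO share those 4 libraries.

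**Figure D2:**
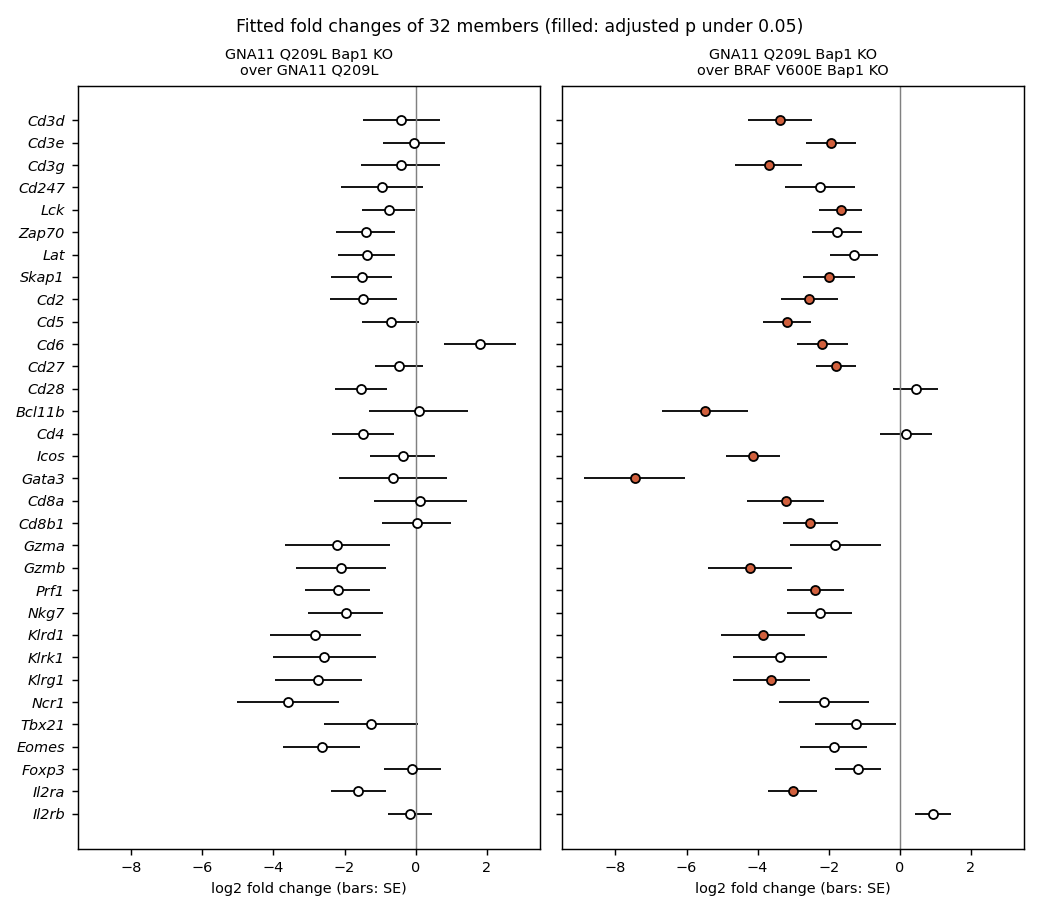
Log2 fold change with its SE for 32 of the 33 members tested, for GNA11 Q209L Bap1 KO over each of the other 2 genotypes, ordered by role, with filled points for an adjusted p under 0.05; Gzmk is left out because GNA11 Q209L had no count of it. Against BRAF V600E Bap1 KO the GNA11 Q209L Bap1 KO values lie mostly below 0, with a median of -2.24 over the members.

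The CD3 chains of the T cell receptor were at low levels in every tumour with GNA11 Q209L. Cd3d had 0.163, 0.497, 0.0541, 0.143 and 0.397 CPM in GNA11 Q209L Bap1 KO replicates 1 to 5, 0.575 and 0.0891 CPM in GNA11 Q209L replicates 1 and 2, and 0.854, 7.56, 1.29 and 1.005 CPM in BRAF V600E Bap1 KO replicates 1 to 4. Each BRAF V600E Bap1 KO library was above all 7 others, and replicate 2 was far above the rest of its group. The log2 fold change of GNA11 Q209L Bap1 KO over BRAF V600E Bap1 KO was -3.37 ± 0.91 (SE, adjusted p = 0.01498) with edgeR, and -2.02 (adjusted p = 0.0548) without BRAF V600E Bap1 KO replicate 2, the library whose absence ended the call. Cd3g, the gamma chain, had 0.108, 0.0553, 0.108, 0.285 and 0.795 CPM in GNA11 Q209L Bap1 KO replicates 1 to 5, 0.706 and 0.0446 CPM in GNA11 Q209L replicates 1 and 2, and 1.43, 8.14, 2.33 and 3.102 CPM in BRAF V600E Bap1 KO replicates 1 to 4. The groups again did not overlap, and the call held without any 1 library, though not without BRAF V600E Bap1 KO replicates 2 and 4 both. The edgeR log2 fold change was -3.69 ± 0.95 (SE, adjusted p = 0.0124), moving to -2.97 without BRAF V600E Bap1 KO replicate 2 and to -4.67 without GNA11 Q209L Bap1 KO replicate 5.

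Cd3e, the epsilon chain, had 0.326, 0.8289, 0.216, 0.428 and 1.002 CPM in GNA11 Q209L Bap1 KO replicates 1 to 5, 1.07 and 0.0891 CPM in GNA11 Q209L replicates 1 and 2, and 1.38, 3.61, 1.39 and 2.403 CPM in BRAF V600E Bap1 KO replicates 1 to 4. Again BRAF V600E Bap1 KO was above all other libraries, with replicates 1 and 3 near the highest libraries with GNA11 Q209L. It was -1.95 ± 0.70 (SE, adjusted p = 0.0466) on the log2 scale in edgeR, close to the threshold. That call was lost with the libraries of 1 identifier summed, with limma voom, with no filter, and without any 1 of the 5 GNA11 Q209L Bap1 KO libraries or of BRAF V600E Bap1 KO replicates 2, 3 and 4, with adjusted p-values over all settings of 0.0171 to 0.275. Against GNA11 Q209L none of the 4 receptor complex genes was called, and Cd3e had -0.06 ± 0.87 (SE, adjusted p = 0.997). The zeta chain gene Cd247, also used by NK cells, ran from 0 to 1.42 CPM across GNA11 Q209L Bap1 KO, 1.73 and 0.178 CPM for GNA11 Q209L, and 0.764 to 3.41 CPM across BRAF V600E Bap1 KO. It was not called with edgeR (adjusted p = 0.0866 against BRAF V600E Bap1 KO), but was lower with DESeq2, with total counts and without GNA11 Q209L Bap1 KO replicate 5.

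Among the 5 proximal signalling genes, Lck and Skap1 were called lower in GNA11 Q209L Bap1 KO than under BRAF V600E. Lck, the Src-family kinase that starts receptor signalling, ran from 1.03 to 2.06 CPM across GNA11 Q209L Bap1 KO, stood at 4.55 and 1.02 CPM for GNA11 Q209L, and ran from 2.58 to 12.6 CPM across BRAF V600E Bap1 KO. Its edgeR log2 fold change was -1.67 ± 0.61 (SE, adjusted p = 0.0493), and -0.77 (adjusted p = 0.246) without BRAF V600E Bap1 KO replicate 2. Skap1, an adaptor that links the receptor to integrin adhesion, had -1.99 ± 0.73 (SE, adjusted p = 0.0498), and -1.41 (adjusted p = 0.155) without that library. Both calls were also lost with the libraries of 1 identifier summed, with limma voom, with no filter and without any 1 of the 5 GNA11 Q209L Bap1 KO libraries, and that of Skap1 without BRAF V600E Bap1 KO replicate 3 or 4. The kinase Zap70 and the adaptor Lat were not called with edgeR, with adjusted p = 0.0637 and 0.143. Zap70 was called lower with DESeq2, with total counts, without GNA11 Q209L Bap1 KO replicate 2 and without BRAF V600E Bap1 KO replicate 1, and Lat without GNA11 Q209L Bap1 KO replicate 3. Sh2d1a, the adaptor SAP of the SLAM receptors, was not tested. It had 0 to 0.108 CPM across GNA11 Q209L Bap1 KO, 0.262 and 0 CPM for GNA11 Q209L, and 0.0348 to 1.46 CPM across BRAF V600E Bap1 KO.

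Of the 5 surface and costimulatory receptors, 4 were called lower in GNA11 Q209L Bap1 KO than under BRAF V600E (Cd2, Cd5, Cd6 and Cd27). Cd5, a scavenger receptor that dampens receptor signalling, had 0.108, 0.111, 0.162, 0.238 and 0.3801 CPM in GNA11 Q209L Bap1 KO replicates 1 to 5, 0.575 and 0.0891 CPM in GNA11 Q209L replicates 1 and 2, and 0.786, 2.79, 2.78 and 1.31 CPM in BRAF V600E Bap1 KO replicates 1 to 4. All 4 BRAF V600E Bap1 KO libraries were above all 7 others, and replicates 2 and 3 were nearly equal. Its edgeR log2 fold change was -3.18 ± 0.68 (SE, adjusted p = 0.00561), -2.94 (adjusted p = 0.0127) without BRAF V600E Bap1 KO replicate 2. The call held in all 19 other settings, with adjusted p-values of 8.66e-05 to 0.0244. Some B cells also carry Cd5, and the 9 B and plasma cell markers matched came to 4.12, 1.82, 3.78, 1.81 and 1.38 CPM in GNA11 Q209L Bap1 KO replicates 1 to 5, 9.89 and 0.535 CPM in GNA11 Q209L replicates 1 and 2, and 3.82, 214, 11.1 and 23.3 CPM in BRAF V600E Bap1 KO replicates 1 to 4. Of the 214 CPM, the single marker Igj gave 202 CPM. The part of B cells in the result was not tested.

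Cd6, a scavenger receptor related to Cd5, had 0.543, 0.608, 0.432, 0.333 and 0.674 CPM in GNA11 Q209L Bap1 KO replicates 1 to 5, 0.157 and 0.134 CPM in GNA11 Q209L replicates 1 and 2, and 1.06, 6.505, 1.53 and 0.393 CPM in BRAF V600E Bap1 KO replicates 1 to 4. GNA11 Q209L lay below every other library, and BRAF V600E Bap1 KO replicate 4 was within the range of GNA11 Q209L Bap1 KO. GNA11 Q209L Bap1 KO had -2.18 ± 0.71 (SE, adjusted p = 0.0319) against BRAF V600E Bap1 KO in edgeR, and GNA11 Q209L had -3.99 ± 1.14 (SE, adjusted p = 0.0413). Without BRAF V600E Bap1 KO replicate 2 these were -0.94 (adjusted p = 0.176) and -2.74 (adjusted p = 0.0481). The first call was also lost with the libraries of 1 identifier summed and without any 1 of the 5 GNA11 Q209L Bap1 KO libraries, and the second with those libraries summed, with the 2 genotypes alone and without any 1 of the 7 libraries with GNA11 Q209L. The adhesion receptor Cd2 had -2.54 ± 0.81 (SE, adjusted p = 0.0291) against BRAF V600E Bap1 KO, -1.61 (adjusted p = 0.112) without BRAF V600E Bap1 KO replicate 2, and also lost its call with the libraries of 1 identifier summed and without any 1 of GNA11 Q209L Bap1 KO replicates 1 to 4. Cd27, a costimulatory receptor of the tumour necrosis factor receptor family, had -1.80 ± 0.56 (SE, adjusted p = 0.0256), -1.58 (adjusted p = 0.0601) without that library. It also lost its call without GNA11 Q209L Bap1 KO replicate 2, 4 or 5.

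Cd28, the main costimulatory receptor of naive T cells, was not called with edgeR in any comparison. It ran from 1.83 to 4.97 CPM across GNA11 Q209L Bap1 KO, stood at 13.7 and 2.36 CPM for GNA11 Q209L, and ran from 0.835 to 3.45 CPM across BRAF V600E Bap1 KO. The log2 fold change over BRAF V600E Bap1 KO was 0.45 ± 0.63 (SE, adjusted p = 0.586) in GNA11 Q209L Bap1 KO and 1.98 ± 0.77 (SE, adjusted p = 0.0949) in GNA11 Q209L with edgeR.

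Bcl11b, the zinc finger factor that commits cells to the T lineage, had 1.302, 0.111, 0.216, 0.238 and 0.121 CPM in GNA11 Q209L Bap1 KO replicates 1 to 5, 0.706 and 0 CPM in GNA11 Q209L replicates 1 and 2, and 3.302, 4.87, 39.3 and 22.7 CPM in BRAF V600E Bap1 KO replicates 1 to 4. The groups with and without BRAF V600E did not overlap, and BRAF V600E Bap1 KO replicates 3 and 4 were the highest. On the log2 scale edgeR gave -5.48 ± 1.22 (SE, adjusted p = 0.00681) over BRAF V600E Bap1 KO, and the call held in all 19 other settings, with adjusted p-values of 1.29e-06 to 0.02002. The value was -6.62 without GNA11 Q209L Bap1 KO replicate 1 and -4.72 without BRAF V600E Bap1 KO replicate 3. Bcl11b is also expressed by keratinocytes, and these are the libraries with the highest keratinocyte marker sums of their genotypes, 1625 CPM in GNA11 Q209L Bap1 KO replicate 1 and 13160 CPM in BRAF V600E Bap1 KO replicate 3. Cd3d, Cd3e and Cd3g were each highest in BRAF V600E Bap1 KO replicate 2, where Bcl11b had 4.87 CPM and the keratinocyte sum was 301 CPM. The part of keratinocytes or of T cells in the Bcl11b result was not tested.

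**Figure D3:**
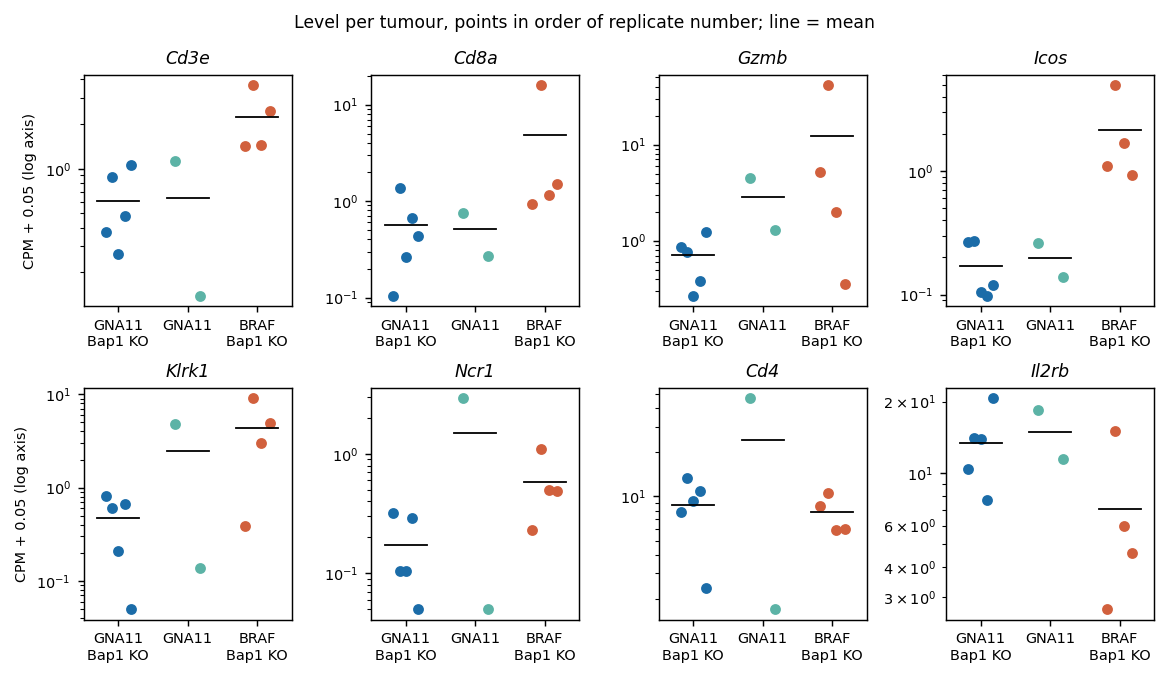
Level of 8 members in each library, as CPM + 0.05 on a log axis, by genotype; each point is 1 tumour and each line the mean of a genotype. BRAF V600E Bap1 KO lies above both other genotypes for Cd3e and Icos, while Cd4 and Ncr1 are highest in GNA11 Q209L replicate 1 and Il2rb in GNA11 Q209L Bap1 KO replicate 5.

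The 3 helper genes went different ways. Cd4, the helper coreceptor, had 7.81, 13.3, 9.24, 10.9 and 2.33 CPM in GNA11 Q209L Bap1 KO replicates 1 to 5, 46.7 and 1.65 CPM in GNA11 Q209L replicates 1 and 2, and 8.61, 10.6, 5.88 and 5.94 CPM in BRAF V600E Bap1 KO replicates 1 to 4. GNA11 Q209L replicate 1 was by far the highest and GNA11 Q209L replicate 2 the lowest, and the other 2 genotypes overlapped. It was not called, with log2 fold changes in edgeR of -1.48 ± 0.87 (SE, adjusted p = 0.576) for GNA11 Q209L Bap1 KO over GNA11 Q209L and 0.17 ± 0.74 (SE, adjusted p = 0.869) over BRAF V600E Bap1 KO. The second was -0.23 with total counts and -0.28 with limma voom, so its sign depended on the method.

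Macrophages and dendritic cells also carry Cd4 transcripts in some settings, and their markers moved with it in GNA11 Q209L. The 10 macrophage and myeloid markers came to 1006, 1159, 1150, 460 and 219 CPM in GNA11 Q209L Bap1 KO replicates 1 to 5, 6921 and 852 CPM in GNA11 Q209L replicates 1 and 2, and 2955, 3129, 814 and 1797 CPM in BRAF V600E Bap1 KO replicates 1 to 4, and none was at 0 in any library. The ratio of Cd4 to Cd3e counts was between 2.33 and 42.8 in GNA11 Q209L Bap1 KO, 43.6 and 18.5 in GNA11 Q209L, and between 2.47 and 6.24 in BRAF V600E Bap1 KO. The part of macrophages and dendritic cells in the Cd4 level was not tested.

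Icos, the inducible costimulator of activated and follicular helper T cells, had 0.217, 0.221, 0.0541, 0.0476 and 0.0691 CPM in GNA11 Q209L Bap1 KO replicates 1 to 5, 0.209 and 0.0891 CPM in GNA11 Q209L replicates 1 and 2, and 1.04, 4.904, 1.64 and 0.874 CPM in BRAF V600E Bap1 KO replicates 1 to 4. Every BRAF V600E Bap1 KO library was above all 7 others, the lowest at 0.874 CPM and the highest of the others at 0.221 CPM. Against BRAF V600E Bap1 KO the edgeR log2 fold change was -4.12 ± 0.75 (SE, adjusted p = 0.00301) for GNA11 Q209L Bap1 KO and -3.76 ± 1.06 (SE, adjusted p = 0.0405) for GNA11 Q209L. The first held in all 19 other settings, with adjusted p-values of 4.62e-06 to 0.0117, and was -3.30 without BRAF V600E Bap1 KO replicate 2. The second was lost without any 1 of 7 libraries: GNA11 Q209L Bap1 KO replicates 1, 3 and 5, both GNA11 Q209L libraries, and BRAF V600E Bap1 KO replicates 2 and 3. It was -4.50 without GNA11 Q209L replicate 1 and -2.92 without BRAF V600E Bap1 KO replicate 2.

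Gata3, the factor of type 2 helper T cells and innate lymphoid cells, had 0.217, 0.0553, 0.108, 0.0476 and 0.207 CPM in GNA11 Q209L Bap1 KO replicates 1 to 5, 0.392 and 0 CPM in GNA11 Q209L replicates 1 and 2, and 0.8198, 3.06, 17.2 and 74.8 CPM in BRAF V600E Bap1 KO replicates 1 to 4. The groups did not overlap, and replicates 3 and 4 of BRAF V600E Bap1 KO held most of its counts. The edgeR log2 fold change over BRAF V600E Bap1 KO was -7.46 ± 1.42 (SE, adjusted p = 0.00356) in GNA11 Q209L Bap1 KO, -5.71 without BRAF V600E Bap1 KO replicate 4. The call was lost with limma voom alone, at adjusted p = 0.0806, and the adjusted p-values of all other settings run were below 0.05. In GNA11 Q209L it was -6.82 ± 2.07 (SE, adjusted p = 0.0493). That second call was lost without any 1 of the 7 libraries with GNA11 Q209L or of BRAF V600E Bap1 KO replicates 3 and 4. Without GNA11 Q209L replicate 1 the group has no count and no fold is given. The value was -5.89 without GNA11 Q209L replicate 2 and -5.07 without BRAF V600E Bap1 KO replicate 4. Gata3 is also a gene of epidermis and hair follicle, and its 2 highest libraries have the highest keratinocyte marker sums, 13160 CPM in replicate 3 and 4474 CPM in replicate 4. The part of keratinocytes in the result was not tested.

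The 7 genes of cytotoxic T cells were dominated by a single tumour. Summed, they came to 3.25, 5.53, 1.89, 3.19 and 4.56 CPM in GNA11 Q209L Bap1 KO replicates 1 to 5, 20.7 and 3.92 CPM in GNA11 Q209L replicates 1 and 2, and 11.4, 90.7, 7.204 and 6.68 CPM in BRAF V600E Bap1 KO replicates 1 to 4. The highest library for all 7 was BRAF V600E Bap1 KO replicate 2, and the other 3 libraries of its genotype lay above all 5 GNA11 Q209L Bap1 KO libraries and below GNA11 Q209L replicate 1. Against BRAF V600E Bap1 KO 4 of the 7 were called lower in GNA11 Q209L Bap1 KO (Cd8a, Cd8b1, Gzmb and Prf1), and without BRAF V600E Bap1 KO replicate 2 none of these was. The sum of the 9 B and plasma cell markers was highest in that tumour too, at 214 CPM, of which Igj alone gave 202 CPM. Its pan leukocyte sum of 1008 CPM was the highest of its genotype. The part of these in the result was not tested.

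Cd8a, the alpha chain of the cytotoxic coreceptor, had 0.0543, 1.33, 0.216, 0.619 and 0.3801 CPM in GNA11 Q209L Bap1 KO replicates 1 to 5, 0.706 and 0.223 CPM in GNA11 Q209L replicates 1 and 2, and 0.876, 15.9, 1.11 and 1.44 CPM in BRAF V600E Bap1 KO replicates 1 to 4. The level in BRAF V600E Bap1 KO replicate 2 was many times that of the next library, and GNA11 Q209L Bap1 KO replicate 2 lay above 2 of the other 3. Its log2 fold change in edgeR was -3.21 ± 1.07 (SE, adjusted p = 0.0349), and -1.14 (adjusted p = 0.279) without BRAF V600E Bap1 KO replicate 2. The call was also lost without any 1 of GNA11 Q209L Bap1 KO replicates 1, 3, 4 and 5, and the value was -3.88 without its replicate 2. Cd8b1, the beta chain, which marks conventional T cells, had 0.108, 0.387, 0.432, 0.381 and 0.397 CPM in GNA11 Q209L Bap1 KO replicates 1 to 5, 0.523 and 0.134 CPM in GNA11 Q209L replicates 1 and 2, and 0.618, 5.58, 0.87 and 0.917 CPM in BRAF V600E Bap1 KO replicates 1 to 4. Replicates 1, 3 and 4 of BRAF V600E Bap1 KO lay just above the highest library with GNA11 Q209L, at 0.523 CPM. Its edgeR log2 fold change was -2.53 ± 0.77 (SE, adjusted p = 0.0249), -1.22 (adjusted p = 0.125) without BRAF V600E Bap1 KO replicate 2, and the call was also lost without GNA11 Q209L Bap1 KO replicate 1, 2 or 5.

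Gzmb, granzyme B, the serine protease that triggers death of target cells, had 0.814, 0.718, 0.216, 0.333 and 1.18 CPM in GNA11 Q209L Bap1 KO replicates 1 to 5, 4.39 and 1.25 CPM in GNA11 Q209L replicates 1 and 2, and 5.19, 41.6, 1.95 and 0.306 CPM in BRAF V600E Bap1 KO replicates 1 to 4. Within BRAF V600E Bap1 KO it ran from 0.306 to 41.6 CPM, with replicate 4 inside the range of GNA11 Q209L Bap1 KO, and both GNA11 Q209L libraries lay above all 5 GNA11 Q209L Bap1 KO libraries. Over BRAF V600E Bap1 KO edgeR gave -4.21 ± 1.18 (SE, adjusted p = 0.0176) on the log2 scale, and -1.92 (adjusted p = 0.0986) without BRAF V600E Bap1 KO replicate 2, the only single library whose absence ended the call. The Gzmb call was also lost with limma voom. Mouse mast cells can also make granzyme B, and the 6 mast cell markers came to 0.311 to 1.57 CPM across GNA11 Q209L Bap1 KO, 1.57 and 0.312 CPM for GNA11 Q209L, and 324, 65.1, 71.9 and 95.3 CPM in BRAF V600E Bap1 KO replicates 1 to 4. Of these Fcer1a had no count in any of the 7 libraries with GNA11 Q209L. Their part in the result was not tested.

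Prf1, perforin, which opens pores in the target membrane, had 1.19, 0.884, 0.432, 0.238 and 0.121 CPM in GNA11 Q209L Bap1 KO replicates 1 to 5, 3.32 and 1.87 CPM in GNA11 Q209L replicates 1 and 2, and 1.898, 7.59, 1.01 and 1.35 CPM in BRAF V600E Bap1 KO replicates 1 to 4. Both GNA11 Q209L libraries lay above all 5 GNA11 Q209L Bap1 KO libraries. Over GNA11 Q209L the edgeR log2 fold change of GNA11 Q209L Bap1 KO was -2.19 ± 0.92 (SE, adjusted p = 0.405), with 5 of 5 libraries lower. It was -2.38 ± 0.80 (SE, adjusted p = 0.0355) over BRAF V600E Bap1 KO, -1.34 (adjusted p = 0.156) without BRAF V600E Bap1 KO replicate 2. That call was also lost without GNA11 Q209L Bap1 KO replicate 2, 3, 4 or 5, or without GNA11 Q209L replicate 2. The other 3 genes of the group, Gzma and Gzmk (granzymes) and Nkg7 (a granule protein), were not called with edgeR. Nkg7 was called lower over BRAF V600E Bap1 KO in 6 of 19 other settings, DESeq2 and total counts among them, and Gzmk in GNA11 Q209L over BRAF V600E Bap1 KO in 2 of 19. Gzmk had 0 counts in both GNA11 Q209L libraries, where 3 counts over the group would be 0.0494 CPM. The mean of GNA11 Q209L Bap1 KO was 3.21-fold that limit and the mean of BRAF V600E Bap1 KO 13.5-fold. Neither difference from GNA11 Q209L was called with edgeR. GNA11 Q209L Bap1 KO replicates 1 to 5 had 1, 2, 1, 11 and 3 counts, so the first ratio is not a firm lower bound. Each ratio rested on 1 library, being 1.37-fold without GNA11 Q209L Bap1 KO replicate 4 and 3.99-fold without BRAF V600E Bap1 KO replicate 2. Granzyme and Klr genes have close paralogues, and how reads that match several genes were counted is not given, so their split within a family is uncertain.

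Summed, the 4 NK receptor genes came to 1.74, 0.774, 0.324, 1.48 and 0.0173 CPM in GNA11 Q209L Bap1 KO replicates 1 to 5, 11.6 and 0.579 CPM in GNA11 Q209L replicates 1 and 2, and 1.17, 19.8, 7.38 and 8.74 CPM in BRAF V600E Bap1 KO replicates 1 to 4. The highest sums were those of BRAF V600E Bap1 KO replicate 2 and GNA11 Q209L replicate 1. In BRAF V600E Bap1 KO replicate 2 Klrd1 and Klrk1 gave 8.24 and 8.99 CPM of the sum. Ncr1, the member most confined to NK cells, had 1.06 CPM there and 2.88 CPM in GNA11 Q209L replicate 1. The sum and Ncr1 thus ranked these 2 libraries differently. Klrd1, CD94, the partner of the NKG2 receptors, had 0.597, 0.166, 0.108, 0.428 and 0.0173 CPM in GNA11 Q209L Bap1 KO replicates 1 to 5, 3.504 and 0.134 CPM in GNA11 Q209L replicates 1 and 2, and 0.303, 8.24, 3.24 and 3.19 CPM in BRAF V600E Bap1 KO replicates 1 to 4. GNA11 Q209L replicate 1 and BRAF V600E Bap1 KO replicates 2, 3 and 4 were at 3.19 CPM or more, and all other libraries at 0.597 CPM or less. The log2 fold change over BRAF V600E Bap1 KO in edgeR was -3.85 ± 1.18 (SE, adjusted p = 0.0249), -3.12 (adjusted p = 0.0642) without BRAF V600E Bap1 KO replicate 2, and the call was also lost without GNA11 Q209L Bap1 KO replicate 2 or 3. Klrk1, the activating receptor NKG2D, had 0.7596, 0.553, 0.162, 0.619 and 0 CPM in GNA11 Q209L Bap1 KO replicates 1 to 5, 4.79 and 0.0891 CPM in GNA11 Q209L replicates 1 and 2, and 0.337, 8.99, 2.96 and 4.85 CPM in BRAF V600E Bap1 KO replicates 1 to 4. The same 4 libraries were high, at 2.96 CPM or more, and the others at 0.76 CPM or less. With edgeR it was not called, at -3.37 ± 1.31 (SE, adjusted p = 0.0589) on the log2 scale, -2.72 without BRAF V600E Bap1 KO replicate 2. It was called lower in 6 of 19 other settings: DESeq2, total counts, the 2 genotypes alone, and without GNA11 Q209L replicate 1, GNA11 Q209L replicate 2 or BRAF V600E Bap1 KO replicate 1.

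Klrg1, an inhibitory receptor of mature NK and effector T cells, had 0.108, 0, 0, 0.1903 and 0 CPM in GNA11 Q209L Bap1 KO replicates 1 to 5, 0.418 and 0.356 CPM in GNA11 Q209L replicates 1 and 2, and 0.348, 1.53, 0.731 and 0.262 CPM in BRAF V600E Bap1 KO replicates 1 to 4. GNA11 Q209L Bap1 KO lay below both other genotypes in every library, 3 of its 5 with no count. In edgeR the log2 fold change was -2.74 ± 1.23 (SE, adjusted p = 0.438) over GNA11 Q209L and -3.61 ± 1.09 (SE, adjusted p = 0.0231) over BRAF V600E Bap1 KO. The second was called in all 15 other settings in which the gene passed the filter. It did not pass in the other 4, which include those without BRAF V600E Bap1 KO replicate 2, so the call was not tested without that library. The value was -4.77 without GNA11 Q209L Bap1 KO replicate 4. Ncr1, NKp46, the receptor most confined to NK cells and related innate lymphoid cells, had 0.271, 0.0553, 0.0541, 0.238 and 0 CPM in GNA11 Q209L Bap1 KO replicates 1 to 5, 2.88 and 0 CPM in GNA11 Q209L replicates 1 and 2, and 0.1797, 1.06, 0.452 and 0.437 CPM in BRAF V600E Bap1 KO replicates 1 to 4. GNA11 Q209L replicate 1 was the highest and its replicate 2 had no count. The value of GNA11 Q209L Bap1 KO over GNA11 Q209L was -3.59 ± 1.43 (SE, adjusted p = 0.383). Without GNA11 Q209L replicate 1 that group is 1 library with no count, where 3 counts would be 0.134 CPM against a mean of 0.124 CPM in GNA11 Q209L Bap1 KO, so no fold is given. Against BRAF V600E Bap1 KO it was -2.14 ± 1.27 (SE, adjusted p = 0.195).

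Ifng, the interferon gamma gene, was hardly detected outside 1 tumour. It had 0, 0, 0, 0.0476 and 0.0691 CPM in GNA11 Q209L Bap1 KO replicates 1 to 5, 0.131 and 0.0446 CPM in GNA11 Q209L replicates 1 and 2, and 0.0561, 1.91, 0.104 and 0.0437 CPM in BRAF V600E Bap1 KO replicates 1 to 4. The 56 counts of BRAF V600E Bap1 KO replicate 2 compare with 0 to 5 counts in each of the other 10 libraries, and the gene was below the filter and not tested. In the 3 other settings that kept it (no filter, and without either GNA11 Q209L library) it was called lower in GNA11 Q209L Bap1 KO than in BRAF V600E Bap1 KO. Tbx21, the factor T-bet of type 1 helper and NK cells, ran from 0.0476 to 0.332 CPM across GNA11 Q209L Bap1 KO, stood at 0.889 and 0 CPM for GNA11 Q209L and ran from 0.0112 to 0.681 CPM across BRAF V600E Bap1 KO. Eomes, its relative in NK and memory CD8 T cells, ran from 0.0345 to 1.048 CPM across GNA11 Q209L Bap1 KO, stood at 3.82 and 0.401 CPM for GNA11 Q209L, and ran from 0.766 to 1.91 CPM across BRAF V600E Bap1 KO. Neither was called with edgeR in any comparison, while Eomes was called lower in GNA11 Q209L Bap1 KO than in BRAF V600E Bap1 KO with limma voom and without GNA11 Q209L Bap1 KO replicate 2. Eomes had -2.64 ± 1.08 (SE, adjusted p = 0.398) over GNA11 Q209L with edgeR, and -0.24 without GNA11 Q209L replicate 1.

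The regulatory gene Foxp3 and the 2 interleukin-2 receptor chains did not move together. Foxp3, the defining factor of regulatory T cells, had 0.543, 0.939, 0.649, 0.1903 and 0.328 CPM in GNA11 Q209L Bap1 KO replicates 1 to 5, 0.628 and 0.4902 CPM in GNA11 Q209L replicates 1 and 2, and 0.404, 2.32, 1.53 and 0.524 CPM in BRAF V600E Bap1 KO replicates 1 to 4. The 3 genotypes overlapped, with BRAF V600E Bap1 KO replicates 2 and 3 the highest. It was not called, at -0.09 ± 0.80 (SE, adjusted p = 0.987) over GNA11 Q209L and -1.18 ± 0.64 (SE, adjusted p = 0.158) over BRAF V600E Bap1 KO in edgeR. Il2ra, the alpha chain CD25 of regulatory and activated T cells, had 0.108, 0.553, 0.378, 0.143 and 0.311 CPM in GNA11 Q209L Bap1 KO replicates 1 to 5, 1.59 and 0.223 CPM in GNA11 Q209L replicates 1 and 2, and 2.63, 3.68, 1.29 and 2.19 CPM in BRAF V600E Bap1 KO replicates 1 to 4. All 4 BRAF V600E Bap1 KO libraries lay above the 5 of GNA11 Q209L Bap1 KO, and GNA11 Q209L replicate 1 lay among its values. Over BRAF V600E Bap1 KO it was -3.02 ± 0.68 (SE, adjusted p = 0.00711), -2.76 (adjusted p = 0.0163) without BRAF V600E Bap1 KO replicate 2, and the call held in all 19 other settings, with adjusted p-values of 8.52e-05 to 0.039.

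Il2rb, the beta chain shared with the interleukin-15 receptor and known from NK and memory T cells, had 10.4, 13.98, 13.8, 7.66 and 20.6 CPM in GNA11 Q209L Bap1 KO replicates 1 to 5, 18.4 and 11.4 CPM in GNA11 Q209L replicates 1 and 2, and 2.62, 15.1, 5.92 and 4.54 CPM in BRAF V600E Bap1 KO replicates 1 to 4. GNA11 Q209L Bap1 KO replicate 5 was the highest, and BRAF V600E Bap1 KO replicates 1, 3 and 4 were the lowest. Il2rb, Cd4 and Cd28 were the 3 tested members with a log2 fold change above 0 against BRAF V600E Bap1 KO. Means of Il2rb were 13.3 ± 4.86 CPM (SD, n = 5) for GNA11 Q209L Bap1 KO, 14.9 ± 4.98 CPM (SD, n = 2) for GNA11 Q209L and 7.03 ± 5.52 CPM (SD, n = 4) for BRAF V600E Bap1 KO. Over BRAF V600E Bap1 KO edgeR gave 0.92 ± 0.51 (SE, adjusted p = 0.162) on the log2 scale, not called. Without BRAF V600E Bap1 KO replicate 2 it was 1.61 (adjusted p = 0.0198) and called higher. GNA11 Q209L Bap1 KO replicate 5 also held 1 or 0 counts of Klrd1, Klrk1, Klrg1 and Ncr1 beside 1192 counts of Il2rb. The same library was the highest of its genotype for the T cell receptor complex sum (3.61 CPM), Cd3e (1.002 CPM), Gzma (1.85 CPM) and Gzmb (1.18 CPM). The ratio of Il2rb to Cd3e counts was 16.9 to 64.0 in GNA11 Q209L Bap1 KO, 17.2 and 128 in GNA11 Q209L, and 1.89 to 4.25 in BRAF V600E Bap1 KO. Which cells gave the Il2rb transcripts was not tested.

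**Figure D4:**
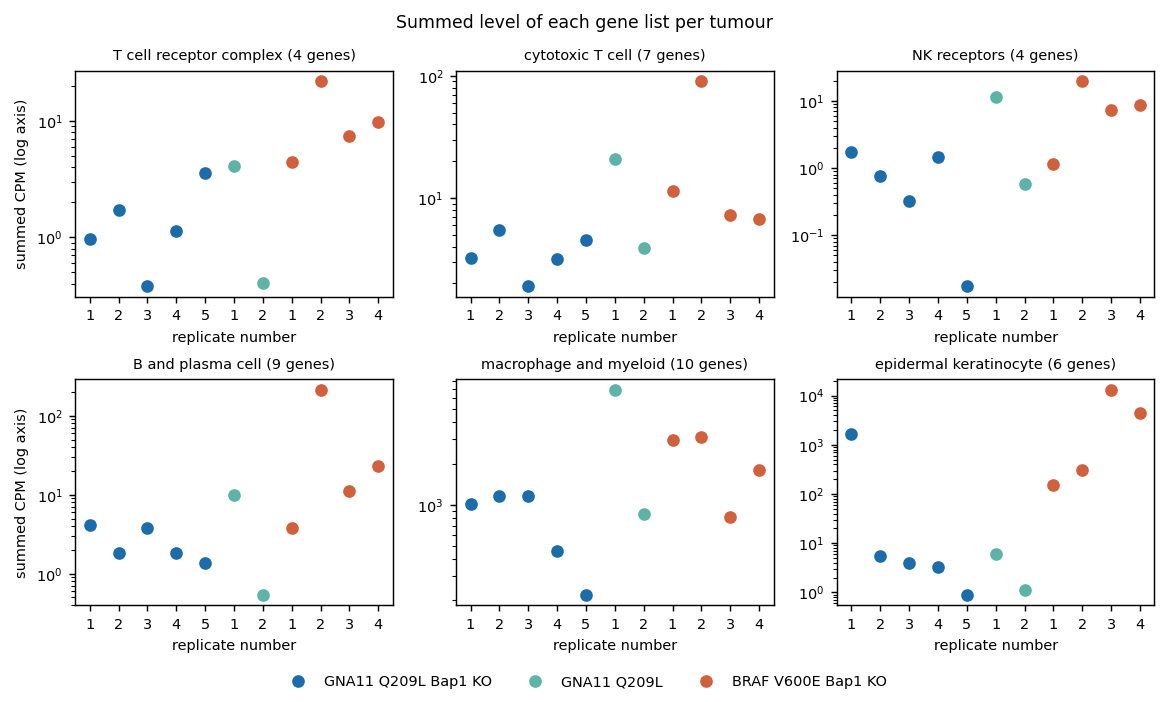
Summed CPM of 6 gene lists in each library on a log axis, by genotype; each point is 1 tumour. The 7 cytotoxic T cell genes lie at 1.89 to 5.53 CPM across GNA11 Q209L Bap1 KO, 20.7 and 3.92 CPM for GNA11 Q209L, and 6.68 to 90.7 CPM across BRAF V600E Bap1 KO. Its replicate 2 is also the highest for the sum of the B and plasma cell markers, most of it from Igj.

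Other T and NK cell pathway genes were taken from a list of 68, of which 66 were matched and 62 tested. For GNA11 Q209L Bap1 KO over GNA11 Q209L 0 were called with edgeR, where 0.0288% of all genes were, and 16 of 62 had an unadjusted p under 0.05, where 11.4% of all genes did. The median log2 fold change was -1.34, and that of all genes -0.004. The 4 with the smallest p-values there were the chemokine Xcl1, the adhesion receptor Cd48, the death ligand Fasl and the kinase Txk. Xcl1 had 0.108, 0, 0.0541, 0.143 and 0.0173 CPM in GNA11 Q209L Bap1 KO replicates 1 to 5, 1.99 and 0.0891 CPM in GNA11 Q209L replicates 1 and 2, and 0.0674, 0.409, 0.348 and 0.699 CPM in BRAF V600E Bap1 KO replicates 1 to 4. Cd48 had 3.69, 2.04, 4.54, 4.19 and 0.985 CPM in GNA11 Q209L Bap1 KO replicates 1 to 5, 41.95 and 2.32 CPM in GNA11 Q209L replicates 1 and 2, and 9.39, 31.4, 6.299 and 14.3 CPM in BRAF V600E Bap1 KO replicates 1 to 4. In both the high mean of GNA11 Q209L came from replicate 1 alone, and the edgeR values were -4.03 ± 1.17 (SE, adjusted p = 0.258) and -2.85 ± 0.88 (SE, adjusted p = 0.286). Fasl had -3.47 ± 1.11 (SE, adjusted p = 0.299) and Txk -3.12 ± 1.02 (SE, adjusted p = 0.309), each highest of its genotype in GNA11 Q209L replicate 1.

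Against BRAF V600E Bap1 KO 29 of the 62 pathway genes were called lower in GNA11 Q209L Bap1 KO and 1 higher, where 24.7% of all genes were called lower and 16.5% higher. That is 46.8% lower. Without BRAF V600E Bap1 KO replicate 2 there were 16 lower and 1 higher of 61 tested, or 26.2% lower, where 21.5% of all genes were. Without replicates 2 and 4 there were 8 lower and 1 higher of 57, or 14% lower, where 13.5% of all genes were. The median log2 fold change was -2.30, where that of all genes was -0.26. Nfatc2, a calcium-dependent transcription factor that many cell types use, had 382, 699, 166, 629 and 638 CPM in GNA11 Q209L Bap1 KO replicates 1 to 5, 198 and 379 CPM in GNA11 Q209L replicates 1 and 2, and 48.5, 14.9, 55.9 and 34.5 CPM in BRAF V600E Bap1 KO replicates 1 to 4. It was the gene called higher (log2 3.71 ± 0.55, SE, adjusted p = 0.00112), and no library of the 2 genotypes overlapped. Ikzf2, the factor Helios, had 1.36, 0.884, 2, 1.57 and 0.484 CPM in GNA11 Q209L Bap1 KO replicates 1 to 5, 2.46 and 1.203 CPM in GNA11 Q209L replicates 1 and 2, and 5.39, 23.7, 18.7 and 18.2 CPM in BRAF V600E Bap1 KO replicates 1 to 4, with -3.71 ± 0.55 (SE, adjusted p = 0.00121). All 7 libraries with GNA11 Q209L were at 2.46 CPM or less and all 4 with BRAF V600E at 5.39 CPM or more.

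Trbc2, a constant gene of the T cell receptor beta chain, had 0.434, 0.0553, 0.162, 0.0476 and 0.553 CPM in GNA11 Q209L Bap1 KO replicates 1 to 5, 0.758 and 0.134 CPM in GNA11 Q209L replicates 1 and 2, and 31.2, 63.5, 2.54 and 2.71 CPM in BRAF V600E Bap1 KO replicates 1 to 4. The high values were those of BRAF V600E Bap1 KO replicates 1 and 2, although replicate 1 was the lowest of its genotype for Cd3d and Cd3g. Il18rap, a subunit of the interleukin-18 receptor, had 1.14, 0.497, 1.08, 0.238 and 0.104 CPM in GNA11 Q209L Bap1 KO replicates 1 to 5, 4.55 and 0.891 CPM in GNA11 Q209L replicates 1 and 2, and 229, 356, 8.11 and 2.75 CPM in BRAF V600E Bap1 KO replicates 1 to 4. It was again high in replicates 1 and 2. The edgeR log2 fold changes over BRAF V600E Bap1 KO were -6.55 ± 1.22 (SE, adjusted p = 0.00326) for Trbc2 and -7.98 ± 1.505 (SE, adjusted p = 0.00345) for Il18rap.

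In GNA11 Q209L over BRAF V600E Bap1 KO, 2 of the 62 pathway genes were called lower (Ikzf2 and Tnfrsf4) and 3 higher (Nfatc2, Slamf7 and Il7r). That is 3.23% lower and 4.84% higher, where 5.93% and 9.27% of all genes were. Without BRAF V600E Bap1 KO replicate 2 the counts were 1 lower and 1 higher of 61 tested. That is 1.64% each, where 3.94% of all genes were called lower and 6.29% higher. These pathway genes were chosen with earlier results of these data known, and the counts describe them only.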

How the data were processed

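RNA from 11 mouse skin tumours was sequenced, and the authors deposited 1 table of estimated counts per gene (expected counts), not normalised; every gene value was already whole, so rounding altered nothing. STAR and the build mm9 are named per the submitters' processing notes; no source used here gives the counting program, the annotation or the use of strand. Of 18769 lines with an ID, 7 repeats were dropped and 6 transgene lines kept out, leaving 18756 genes; 21 symbols stored as dates were restored. The depth was 18338082 to 81035135 counts per library; intervals and floors (3 counts) cover counting error only.

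Counts were fitted with edgeR 4.0.16 (R 4.3.3), TMM scaling and filterByExpr, with genotype as the factor and all 11 libraries sharing the spread (common dispersion 0.419). Two-sided quasi-likelihood p-values were adjusted by Benjamini-Hochberg over 17350 genes, threshold 0.05. The SE is the log2 fold change over the root of its F statistic. The fit was tested on simulated data. Alternatives were size factors (RLE), total counts, DESeq2 1.42.0, limma voom 3.58.1, no filter, the 2 genotypes alone, summed libraries of 1 identifier and each library left out.

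The 35 members, the 68 pathway genes and the marker lists were chosen with earlier results of these data known. Values in every library are given for up to 12 called members with the smallest p-values and 14 defining members, 21 in all, and for up to 4 pathway genes in each of the first 2 comparisons.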

Additional observations from a re-analysis of the deposited data

Results flagged for a closer look

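Each of the 35 members was examined for a single stray library in the groups of 4 and 5 libraries, 70 groups in all. For independent, normally distributed values about 1 in 20 groups would be flagged. Many values here rest on few counts, and the members share the same libraries, so the number flagged cannot be set against that rate. A library stood apart, by a gap to its nearest neighbour that is large for the range of its group (Dixon's criterion), in 17 of them.

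All 10 of the stray values among BRAF V600E Bap1 KO libraries were high values of replicate 2. There Cd3d stood at 7.56 CPM (next library 1.29 CPM), the kinase gene Lck at 12.57 CPM (2.96 CPM) and the adaptor gene Sh2d1a at 1.464 CPM (0.175 CPM). Cd8a stood at 15.87 CPM (1.44 CPM) and Cd8b1 at 5.585 CPM (0.918 CPM). Of the granule genes, Gzmb stood at 41.62 CPM (5.19 CPM), Gzmk at 2.077 CPM (0.383 CPM), Prf1 at 7.595 CPM (1.898 CPM) and Nkg7 at 12.19 CPM (2.23 CPM). Ifng stood at 1.907 CPM (0.104 CPM). The sum of the B and plasma cell markers was highest in the same library, at 214 CPM, of which Igj alone gave 202 CPM. Blk, Fcrla, Pax5 and Tnfrsf17 were each highest in another library. The entry of replicate 2 for BAP1 is NA in the last line of the table.

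The 7 stray values among GNA11 Q209L Bap1 KO libraries were spread over all 5 of them. Bcl11b stood at 1.302 CPM in replicate 1 (next library 0.238 CPM), the one with the highest keratinocyte sum of its genotype, and Cd8b1 was low there at 0.1085 CPM (0.381 CPM). Zap70 stood at 1.658 CPM in replicate 2 (0.597 CPM), Cd28 at 4.974 CPM in replicate 3 (2.71 CPM) and Gzmk at 0.5233 CPM in replicate 4 (0.111 CPM). In replicate 5 Cd247 stood at 1.417 CPM (0.3798 CPM) and Gzma at 1.848 CPM (0.434 CPM).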

How the results depend on the processing

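Most values kept their direction. In GNA11 Q209L Bap1 KO over GNA11 Q209L 0 members were called in all settings run. All genes called there numbered 5, against 3 with RLE size factors, 443 with DESeq2, 3 with no filter, 64 with the 2 genotypes alone, 0 with libraries of 1 identifier summed, and 0 to 13 with a library left out. Over BRAF V600E Bap1 KO, 19 members were called, against 11 with limma voom, 14 with libraries of 1 identifier summed, 7 with BRAF V600E Bap1 KO replicates 2 and 4 both left out, and 7 to 22 with 1 library left out. All genes called numbered 7146, against 3571 with those 2 left out and 5448 to 7176 with 1 left out. In GNA11 Q209L over BRAF V600E Bap1 KO 3 members were called, against 8 with DESeq2, 0 with limma voom, 0 with the 2 genotypes alone, 1 with summed libraries, 1 with the 2 replicates left out, and 0 to 5 with 1 left out. All genes called were 2637, against 5425 with DESeq2, 417 with the 2 genotypes alone, 838 with the 2 replicates left out and 265 to 2867 with 1 left out.

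Signs turned for some uncalled log2 fold changes. In GNA11 Q209L Bap1 KO over GNA11 Q209L, Cd3e was 0.463 with voom and 0.004 with summed libraries and Cd8a -0.272 with voom. Over BRAF V600E Bap1 KO, Cd4 was -0.228 with total counts and -0.285 with voom. In GNA11 Q209L over BRAF V600E Bap1 KO, Ncr1 was -0.247 with voom. With 1 library left out, values over GNA11 Q209L ran from -1.081 to 1.475 for Cd3d, -0.838 to 2.617 for Cd3e, -1.402 to 2.582 for Cd3g, -2.364 to 2.397 for Cd4, -0.548 to 1.198 for Cd8a, -0.406 to 0.151 for Foxp3, -4.533 to 4.987 for Ncr1, -3.480 to 2.154 for Klrk1 and -0.396 to 0.226 for Il2rb. Over BRAF V600E Bap1 KO Cd4 ran from -0.015 to 0.463, and GNA11 Q209L over BRAF V600E Bap1 KO gave -7.109 to 2.439 for Ncr1. Without GNA11 Q209L replicate 1 that group has no count of Ncr1, so the 4.987 and -7.109 are products of the prior count and neither folds nor turned signs. The cause was not tested.

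DESeq2 gave no adjusted p for Cd8a in 3 comparisons, Cd3d in 2 and Cd8b1 in 1, which stayed out of its counts. No paired analysis was possible because the labels give no replicate numbers shared between genotypes. Many members had few counts in a library and GNA11 Q209L has 2 libraries, so differences of GNA11 Q209L Bap1 KO from GNA11 Q209L carry wide errors.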
